A study of Mus musculus with 2 samples.

Results

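The osteocyte-marker-positive spots were the spots of bone at the fracture site of the Loaded femur that held at least 2 unique molecular identifiers (UMIs, each standing for 1 captured molecule) of *Dmp1*, *Mepe*, *Phex* and *Sost* summed. Of the 146 spots that the study annotated as bone at the Loaded fracture site, 68 met this rule (46.6%, exact binomial 95% interval 38.3 to 55.0%), 36 held 1 such UMI and 42 held none, out of 3398 spots under tissue in both sections of the series. The rule read the marker counts themselves, so the marker levels of these spots are described here and not tested. Both femurs came from female bone cell reporter mice, in which *Ibsp* is tagged with eGFP and *Acp5* with mCherry, so both groups carried both alleles. The mice received a mid-diaphyseal osteotomy at 12 weeks of age and were euthanized at 17 weeks, 5 weeks after surgery. From week 3 onward the Loaded mouse received cyclic mechanical loading 3 times per week and the Control mouse was sham-loaded at the same frequency. Gene expression was measured with the Visium assay for formalin-fixed, paraffin-embedded tissue in 1 section per group, so there is no replicate section and every interval below covers counting error only. A spot is a small area of tissue that can hold several cells of different types, and in such areas fewer cells of a type cannot be told apart from less RNA per cell.

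Osteocytes are former osteoblasts that have been enclosed by the matrix they produced. They sense strain and fluid flow through processes in the canaliculi, control mineral and phosphate handling, and signal to osteoblasts and osteoclasts on the bone surface. *Dmp1* (chr5:104202613-104214102, + strand, GRCm38) encodes an acidic matrix phosphoprotein needed for mineralization and is switched on as the osteoblast becomes embedded. *Mepe* (chr5:104325329-104338611, +) encodes a related matrix phosphoglycoprotein that is a marker of mineralized-matrix osteocytes. *Phex* (chrX:157162075-157415312, −) encodes a membrane endopeptidase whose loss causes X-linked hypophosphatemia. *Sost* (chr11:101962458-101967015, −) encodes sclerostin, a secreted antagonist of Wnt signaling made by mature osteocytes and lowered by mechanical loading in intact bone.

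The 4 markers lie on 3 chromosomes, and the bases before their start sites are shown because the rule sums their transcripts. All 4 genes matched the RefSeq promoter table (GRCm38.p6), and each line gives the 250 bases upstream of the start site, 5′ to 3′ on the strand of the gene, at chr5:104202367-104202616 (+) for *Dmp1*, chr5:104325079-104325328 (+) for *Mepe*, chrX:157415287-157415536 (−) for *Phex* and chr11:101967016-101967265 (−) for *Sost*. Capitals mark the core hexamer bound by Runx factors (TGTGGT, or ACCACA on the other strand) and the letters TTTAAA, which read the same on both strands and do not overlap the hexamer.
Dmp1: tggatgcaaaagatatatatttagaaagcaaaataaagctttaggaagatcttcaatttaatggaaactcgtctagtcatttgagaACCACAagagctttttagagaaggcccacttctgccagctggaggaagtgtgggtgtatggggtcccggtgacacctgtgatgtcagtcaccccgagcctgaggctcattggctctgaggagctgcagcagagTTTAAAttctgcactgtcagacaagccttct
Mepe: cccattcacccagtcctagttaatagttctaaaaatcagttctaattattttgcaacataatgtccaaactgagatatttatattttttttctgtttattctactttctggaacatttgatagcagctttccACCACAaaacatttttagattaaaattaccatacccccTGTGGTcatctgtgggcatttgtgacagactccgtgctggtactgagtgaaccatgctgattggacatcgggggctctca
Phex: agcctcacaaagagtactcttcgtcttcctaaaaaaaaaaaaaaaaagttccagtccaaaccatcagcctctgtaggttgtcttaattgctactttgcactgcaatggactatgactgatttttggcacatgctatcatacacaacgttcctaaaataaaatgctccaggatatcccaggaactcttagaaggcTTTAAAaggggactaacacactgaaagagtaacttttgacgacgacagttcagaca
Sost: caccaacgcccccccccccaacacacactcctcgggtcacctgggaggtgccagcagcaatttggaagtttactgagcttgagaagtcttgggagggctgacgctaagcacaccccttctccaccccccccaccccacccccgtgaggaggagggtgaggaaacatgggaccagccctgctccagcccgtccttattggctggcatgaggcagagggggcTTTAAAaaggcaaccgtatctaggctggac
The hexamer occurred once for *Dmp1*, at 164 bases before the start, and at 2 positions for *Mepe*, at 118 and 80 bases before it. It was not found in the windows of *Phex* and *Sost*. Of all 32851 promoter windows of this length 14% held it, so most windows lacked it too. TTTAAA began 31 bases before the start of *Dmp1*, 30 bases before that of *Sost* and 56 bases before that of *Phex*, and 12.1% of all windows held it anywhere. These distances are counted from the RefSeq start, which for *Dmp1* and *Phex* lies inside the gene span given above. Counted from the edge of that span they would be shorter, more so for *Phex*, so its larger distance depends on the annotation. Both sets of letters were searched after the sequences had been seen, and a match describes the sequence only.

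In the 68 positive spots the markers summed to 290 UMIs among 235427 UMIs of all genes, or 12.3 per 10000 UMIs (Poisson 95% interval 10.9 to 13.8). *Dmp1* contributed 153 UMIs in 61 spots with at most 9 in a spot, *Sost* 67 UMIs in 33 spots, *Mepe* 37 UMIs in 28 spots and *Phex* 33 UMIs in 25 spots. *Dmp1* was therefore present in 89.7% of the positive spots, while each of the other markers was detected in fewer than 50% of them. At the border of the rule, 21 spots held exactly 2 marker UMIs and 36 spots held 1, and 26 spots held 5 or more up to a maximum of 11. A single marker was found in 16 positive spots, 2 markers in 32, 3 markers in 13 and all 4 markers in 7. *Dmp1* alone made up 14 of the 16 single-marker spots and *Sost* alone the other 2. A rule of at least 2 summed UMIs itself favors spots with more than 1 marker, so these counts do not show that the markers go together.

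Each marker was then examined in spots grouped by the other 3 markers, which keeps the marker itself out of the grouping. *Dmp1* was found at 6.02 UMIs per 10000 in the 37 spots with at least 2 UMIs of the others and at 3.34 per 10000 in the 74 spots with none (log2 ratio 0.85, counting interval 0.35 to 1.36). *Phex* was at 1.27 per 10000 in 63 spots and 0.22 per 10000 in 44 spots (2.55, 0.57 to 5.67). The ratios of *Mepe* (0.88, −0.21 to 2.13) and *Sost* (0.85, −0.10 to 1.91) had intervals that included 0. The 4 markers were thus each higher beside the other 3, and for *Dmp1* and *Phex* the difference was larger than the counting error. After thinning every spot to 1000 UMIs the ratios were 0.83 for *Dmp1*, 0.74 for *Mepe* and 1.60 for *Sost*, with intervals that included 0, and *Phex* had 11 UMIs in 63 spots against 0 in 34.

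The positive share of Loaded bone was above that of the other spots of the Loaded section and of annotated Control bone. Outside the annotated bone of the Loaded section, 65 of 1290 spots met the rule (5.04%), and among the 689 of these in which muscle genes made up at least 10% of UMIs the share was 4.79% at a median depth of 3425 UMIs, compared with 2621 UMIs in the bone region. In bone at the Control fracture site, 8 of 131 spots met it (6.11%, 2.67 to 11.7%) at a median depth of 3478 UMIs. Outside the annotated bone of the Control section, 189 of 1831 spots met it (10.3%) at a median depth of 2045 UMIs. Control bone was thus not enriched for such spots within its own section. At 1000 UMIs per spot, at least 1 marker UMI was seen in 49.6% of Loaded bone spots and 8.95% of the muscle-rich spots. In the Control section it was seen in 9.16% of bone spots and 14.3% of the spots outside bone. With 1 section per group the difference between sections has no replicate check and cannot be told apart from where each section cut the bone.

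Positivity on raw UMIs rose with depth. Positive spots had a median of 2915 UMIs (range 1053 to 12289), spots with 1 marker UMI 2374 (509 to 5180) and negative spots 2371 (581 to 4132). Positive spots made up 6 of 37 spots in the shallowest of 4 depth classes of nearly equal size, 19 of 36 in each of the middle classes and 24 of 37 in the deepest. At 1000 UMIs per spot the share with a marker UMI ran from 59.1% in the shallowest class to 44.4% and 48.6% in the deeper classes. No rise with depth was thus seen among spots with at least 1000 UMIs. The shallowest class kept only 22 of its 37 spots in this comparison. Thinning left out 9 negative spots, 6 spots with 1 marker UMI and no positive spot. The number of genes detected at 1000 UMIs had a median of 714 in positive, 720 in 1-UMI and 705 in negative spots.

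**Figure D1:**
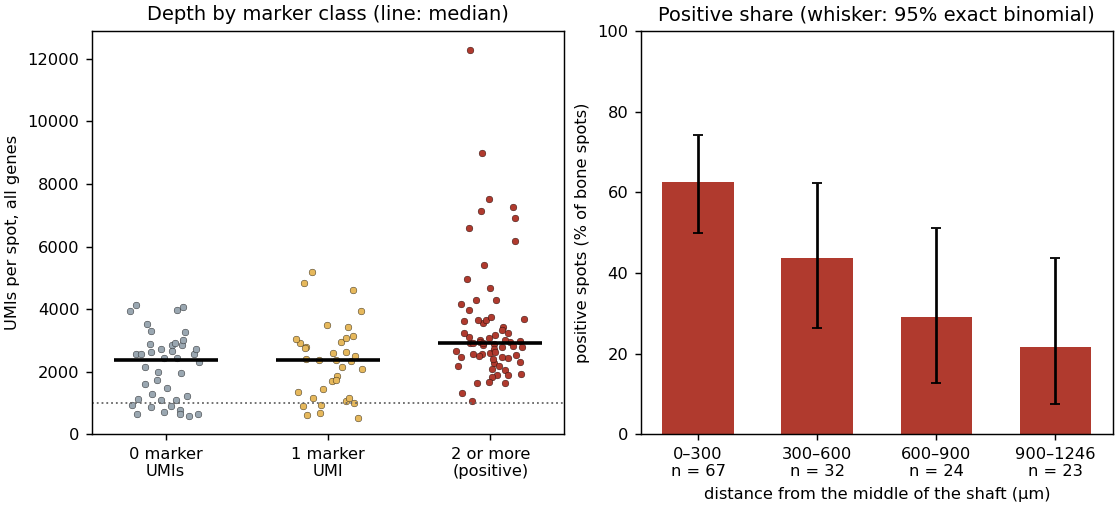
Left, total UMIs of each Loaded bone spot by its summed marker UMIs (points, spots; horizontal line, median; dotted line, 1000 UMIs), where the medians are 2371, 2374 and 2915. Right, share of bone spots that were positive by distance from the middle of the annotated shaft in µm, with 95% exact binomial whiskers, falling from 62.7% to 21.7%.

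By the raw rule, positive spots often adjoined other positive spots. Counted over pairs of adjoining bone spots, and so with a spot counted once for each neighbor, 202 of the 294 neighbors of positive spots were positive (68.7%), compared with 40 of the 154 neighbors of negative spots (26.0%). Over all bone spots the positive share was 46.6%. Neighbors were not counted at equal depth, and the part of depth in their shares was not tested. Along the shaft, the share of positive spots was 62.7% within 300 µm of the middle of the annotated region, 43.8% at 300 to 600 µm, 29.2% at 600 to 900 µm and 21.7% beyond. Median depth changed in parallel, from 3105 UMIs in the middle to 1176 UMIs at the ends. Across the shaft, positive spots lay at a median of 566 µm from the long axis and negative spots at 469 µm. In the outermost band, 550 µm or more from the axis, 43 of 68 spots were positive (63.2%), compared with 45.5% of 22 spots at 350 to 450 µm, 25.8% of 31 spots at 450 to 550 µm and 28% of 25 spots within 350 µm, so the share did not rise steadily outward. Median depth was 2538 UMIs in the outermost and 3426 UMIs in the innermost band. Erythroid genes made up 1.59% of UMIs in the outer band and 5.05% in the inner band, and osteoblast and bone matrix genes 8.31% and 5.22%.

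**Figure D2:**
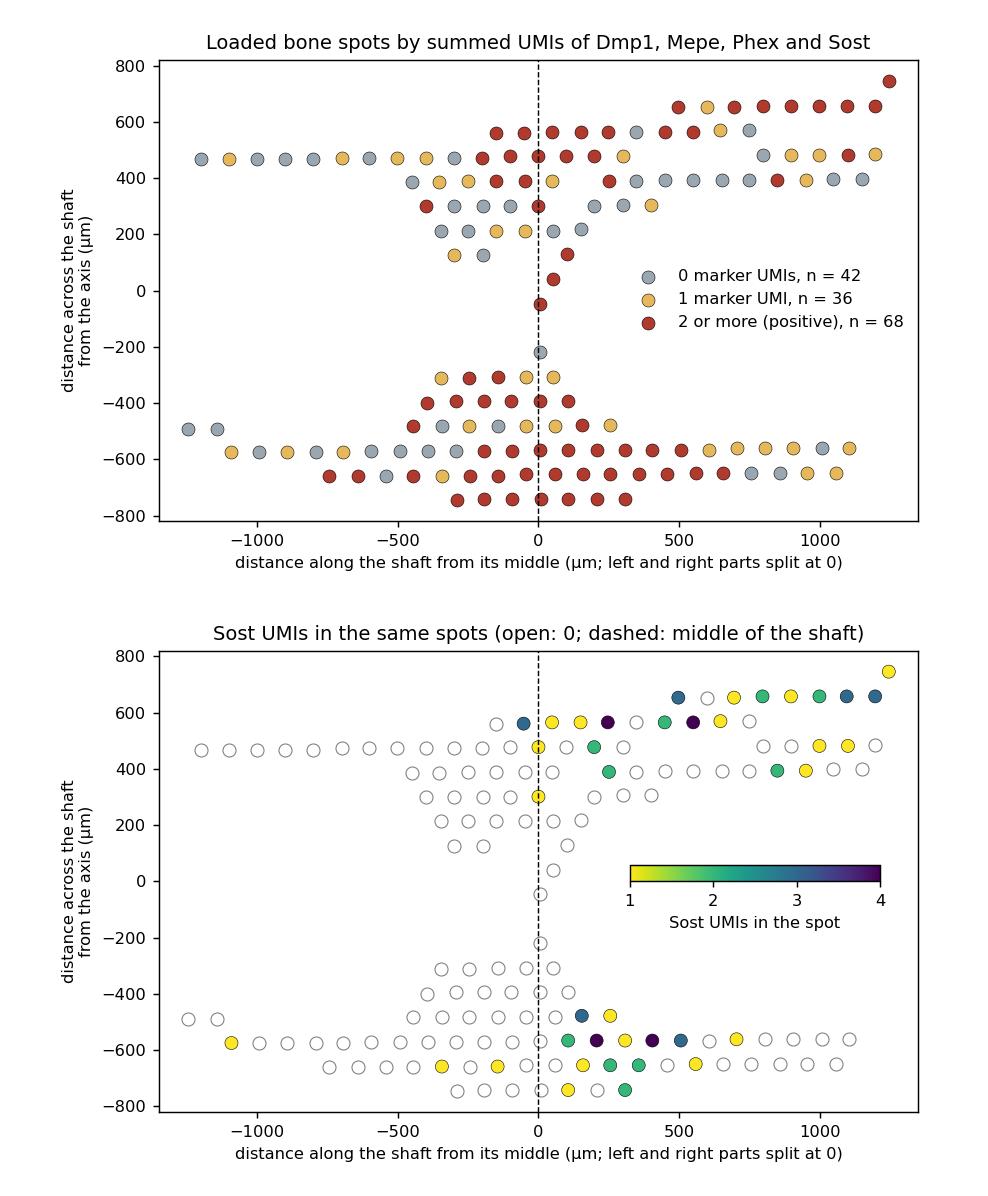
Position of the 146 Loaded bone spots along (x, µm) and across (y, µm) the shaft, with the number of summed marker UMIs in the upper panel and *Sost* UMIs in the lower panel. Positive spots fill the outer rows on both sides near the middle, and *Sost* lies almost entirely to the right of the dashed line, with 68 of 74 UMIs.

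The 4 markers did not share one distribution within the bone. When the region was divided at its middle, *Sost* had 6 UMIs in the 66 spots of the left part and 68 UMIs in the 80 spots of the right part, or 0.32 and 3.06 per 10000 UMIs (log2 ratio of right over left 3.25, counting interval 2.06 to 4.75). *Dmp1* had 82 and 89 UMIs, or 4.39 and 4.01 per 10000 (−0.13, −0.58 to 0.32). The ratios of *Mepe* (0.66, −0.26 to 1.63) and *Phex* (0.34, −0.71 to 1.43) were between these and their intervals included 0. The split was found on both sides of the bone, with 3 and 28 *Sost* UMIs on side A and 3 and 40 on side B. The median depth of the left and right parts was 2599 and 2628 UMIs, and positive spots made up 25 of 66 and 43 of 80. In the spots outside the bone region at the same positions along the shaft, *Sost* had 5 UMIs in 236 spots of the left part and 21 UMIs in 217 spots of the right part (2.30, 0.85 to 4.06), while *Dmp1* had 41 and 30. These parts were compared after the map had been seen. Away from the axis, all 4 markers had more UMIs per 10000, and *Sost* was at 2.61 per 10000 in the 99 spots 450 µm or more from the axis and 0.40 in the 47 spots nearer to it, compared with 4.99 and 2.76 for *Dmp1*.

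Among the positive spots, the 33 with *Sost* (31 of them in the right part) were compared with the 35 without it (12 in the right part). Of 1481 genes with at least 30 UMIs, 11% were at least 1.5-fold higher and 12.5% at least 1.5-fold lower in the spots with *Sost*, with a median log2 ratio near 0. Skeletal muscle genes stood out by their count, with 18 of 22 at least 1.5-fold higher and a median of 0.86, and 0.75 among spots of the right part alone. Of 12 bone matrix genes, 3 were at least 1.5-fold lower and none higher, and the median was −0.23 over all positive spots but 0.17 within the right part. *Spp1*, which encodes osteopontin, was at 6.34 normalized UMIs per spot with *Sost* and 11.5 without (log2 ratio −0.86, −1.09 to −0.63), and −1.0 within the right part. *Col1a2* was at −0.59 (−0.65 to −0.53; −0.27 within the right part) and *Bglap*, which encodes osteocalcin, at 0.11 (−0.11 to 0.32). Spots with *Sost* had a median of 2726 UMIs and those without 3349 UMIs, and the part of the muscle signal in these differences was not tested.

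All other genes were compared between the 68 positive and the 42 negative spots by their summed UMIs divided by the summed scran size factors, given as normalized UMIs per spot of average depth. The summed size factors were 84.8 and 31.3, so a gene at equal level has more UMIs in positive spots. Pairs of UMI counts below are to be read against these sums. Of 2168 genes with at least 30 UMIs, 18.4% were at least 1.5-fold higher and 14.4% at least 1.5-fold lower in positive spots, and the median log2 ratio was 0.01. With all spots at 1000 UMIs the shares were 24.3% and 20.2% of 2155 genes, many of them with few UMIs left. These percentages are the background against which the gene groups below are read. Values are log2 ratios of positive over negative spots with the counting interval unless a level is named.

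Genes of the osteoblast and its matrix were higher in the positive spots. Of 12 osteoblast and bone matrix genes, 9 were at least 1.5-fold higher, none was at least 1.5-fold lower, and the median was 0.87 (0.78 at 1000 UMIs). *Col1a1*, the main collagen chain of bone, had a level of 70.9 in positive, 46.1 in 1-UMI and 35.6 in negative spots (0.99, 0.90 to 1.08). At 1000 UMIs single spots held 2 to 79 *Col1a1* UMIs (median 16.5) when positive and 2 to 30 (median 10) when negative, so the classes overlapped while the highest values lay among positive spots. *Sparc*, which encodes the collagen-binding protein osteonectin, was at 16.1 and 7.5 in positive and negative spots (1.10, 0.90 to 1.31). At 1000 UMIs it was found in 92.6% of positive spots, at 0 to 17 UMIs, and in 90.9% of negative spots, at 0 to 11 UMIs. *Spp1* (0.81, 0.57 to 1.06), *Bglap* (0.59, 0.36 to 0.84) and *Ibsp* (0.92, 0.45 to 1.41), whose products bind mineral in the matrix, were also higher. At 1000 UMIs 7 of the 12 genes passed the limit, *Bglap* was at 0.43 (0.02 to 0.85) and *Ibsp* at 0.19 (−0.59 to 1.02). *Col1a2* missed the 1.5-fold limit at 0.55 (0.49 to 0.61). Among the regulators, *Dlx5*, a homeobox factor of osteoblast differentiation, had 39 UMIs in positive and 4 in negative spots (1.85, 0.38 to 3.80). At 1000 UMIs *Dlx5* had 11 and 1 with an interval that included 0, and below the median depth it was at −2.49. *Sp7*, which encodes osterix, had 33 and 6 (1.02, −0.25 to 2.57). *Runx2* was at 0.54 with an interval that included 0. Bone matrix genes were a larger part of positive spots, with a median of 6.34% of a spot's UMIs (1.35 to 25%) against 4.50% (1.03 to 27.3%) in negative spots, and the ranges overlapped almost fully.

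The difference in bone matrix genes was large among the deeper spots and near 0 among the shallower ones. At or above the median of 2621 UMIs lay 43 positive and 16 negative spots, with medians of 3428 and 2967 UMIs. The deepest positive spot held 12289 UMIs and the deepest negative spot 4132, so depth was not matched here either. In this group the median of the osteoblast genes was 1.26, with *Col1a1* at 1.26 and *Bglap* at 1.33. Below 2621 UMIs lay 25 positive and 26 negative spots, with medians of 2194 and 1250 UMIs. There the list median was 0.07, with *Col1a1* at 0.18, *Bglap* at −0.23 and *Ibsp* at −0.61. Of the shallow negative spots, 15 of 26 lay 600 µm or more from the middle of the shaft, compared with 3 of the 16 deep negative spots, and the part of depth or position in the result was not tested. Among the 56 positive and 24 negative spots within 600 µm of the middle the median was 0.86. At 450 µm or more from the axis (51 positive and 23 negative spots) it was 0.67, with *Col1a1* at 0.63 and *Col1a2* at −0.04, and nearer to the axis (17 and 19 spots) it was 0.38, with *Col1a1* at 0.88 and *Col1a2* at 1.08.

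**Figure D3:**
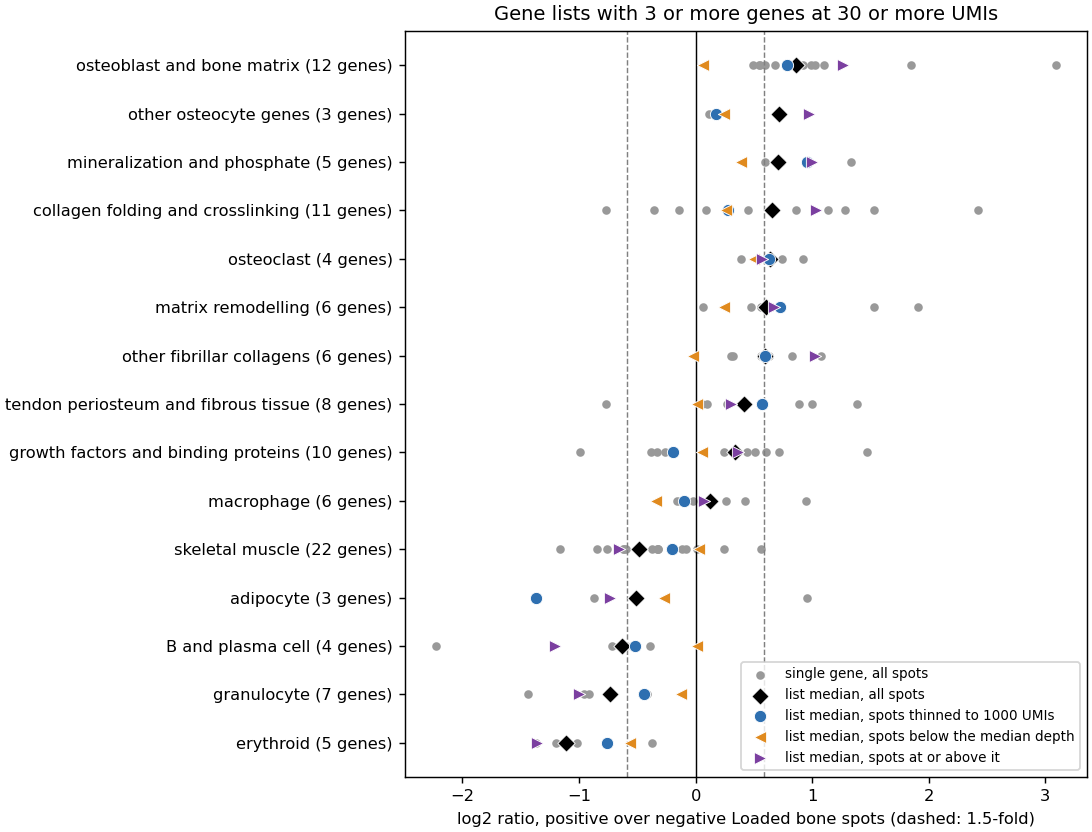
Log2 ratio of positive over negative Loaded bone spots (x) for each gene list with at least 3 genes tested (y, number of genes in parentheses). Grey points are genes, diamonds the list medians over all spots, circles after thinning, and triangles the shallower and deeper spots. Bone matrix lists lie right of 0 and blood lists left of it, and the osteoblast median moves from 0.07 in the shallower to 1.26 in the deeper spots.

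Genes of mineralization and of collagen production accompanied the matrix genes. All 5 tested mineralization genes were at least 1.5-fold higher (median 0.71), and 3 of them still were at 1000 UMIs. They included *Phospho1*, the phosphatase that starts mineral formation in matrix vesicles, with 128 and 29 UMIs (0.71, 0.12 to 1.34), *Ank*, a pyrophosphate transporter (1.34, 0.09 to 2.86), and *Mgp*, an inhibitor of mineralization (0.60, 0.29 to 0.91), which was at 0.27 (−0.22 to 0.78) at 1000 UMIs. The intervals of *Car12* (0.70, −0.31 to 1.86) and *Slc20a2* (0.73, −0.57 to 2.30) included 0. In spots with 1 marker UMI *Ank* was at a level of 0.57 and *Slc20a2* at 0.70, above their levels of 0.48 and 0.32 in positive spots. *Phospho1*, *Mgp* and *Car12* were lower in 1-UMI than in positive spots. Of 6 other fibrillar collagens, *Col12a1* (1.07, 0.21 to 2.05), *Col5a1* (0.83, 0.41 to 1.27) and *Col5a2* (0.63, 0.29 to 0.98) passed the limit, and *Col3a1*, the collagen of soft and early repair tissue, did not (0.32, 0.11 to 0.53). Of 11 genes of collagen folding and crosslinking, 6 were at least 1.5-fold higher and 1 lower, with a median of 0.65. At 1000 UMIs 5 were higher and 2 lower, and the median was 0.28. *Serpinh1*, the collagen chaperone, was at levels of 2.48 and 1.02 (1.28, 0.74 to 1.86), *Bmp1*, the procollagen C-proteinase, was at 1.14 (0.46 to 1.88) but at −0.16 when *Dmp1* was left out of the rule, and *Creb3l1*, a transcription factor of the secretory pathway of osteoblasts, had 58 and 4 UMIs (2.42, 0.99 to 4.35). *Pdia3*, a general disulfide isomerase, was lower (−0.35, −0.61 to −0.09) without reaching 1.5-fold, and *P4ha2* was at −0.77 with an interval that included 0.

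The other genes known from osteocytes were mostly too sparse to compare. Of 12 listed, 3 reached 30 UMIs. *Gja1*, which encodes the gap junction protein connexin 43 through which osteocytes are coupled, had 129 and 29 UMIs (0.72, 0.13 to 1.35), but it was detected in 33.8% of positive and 30.3% of negative spots at 1000 UMIs, where its ratio was 0.28. *Irx5* was at 0.73 (−0.57 to 2.30) and *Cd44* at 0.12 (−0.48 to 0.76). *Pdpn*, a gene of early embedding osteocytes, had 13 and 3 UMIs, *Ackr3* 15 and 5, *Ptprz1* 11 and 2, and the phosphate-regulating hormone *Fgf23* 1 and 0. Others went the other way, with *Fbln7* at 8 and 6 UMIs (−1.02, −2.74 to 0.79), *Wnt1* at 0 and 2 and *Dkk1* at 0 and 1. All these counts are too few to show a difference. Apart from the 4 markers, the osteocyte identity of these spots therefore had little to rest on at this depth, and they are named by the marker rule.

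Of 4 osteoclast genes tested, 2 were at least 1.5-fold higher in positive than in negative spots and none lower. *Ctsk*, the collagen-degrading protease of osteoclasts, was at levels of 7.06 in positive and 4.21 in negative spots (0.74, 0.47 to 1.03), *Acp5*, tartrate-resistant acid phosphatase, at 2.71 and 1.44 (0.92, 0.45 to 1.41) and *Mmp9* at 4.42 and 3.38 (0.39, 0.07 to 0.71), and *Tcirg1* was at 0.53 (−0.40 to 1.58). In spots with 1 marker UMI *Ctsk* was at 6.85 and *Acp5* at 2.44, near their levels in positive spots, and with those spots as the low group the list median was −0.13 against 0.64. They were also not higher when positivity was set at 1000 UMIs per spot (median −0.04). Their median was 1.32 at 450 µm or more from the axis and 0.23 nearer to it, where *Acp5* was at −0.37. Of the remodelling genes, 3 of 6 were at least 1.5-fold higher, led by *Timp1*, an inhibitor of metalloproteinases, with 61 and 6 UMIs (1.91, 0.71 to 3.41), *Mmp14*, a membrane collagenase, with 47 and 6 (1.53, 0.30 to 3.05), and *Mmp2*, a gelatinase that Mmp14 activates (0.64, 0.07 to 1.26). *Mmp13*, the collagenase of hypertrophic cartilage and osteoblasts, was at 0.48 (−0.11 to 1.11).

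**Figure D4:**
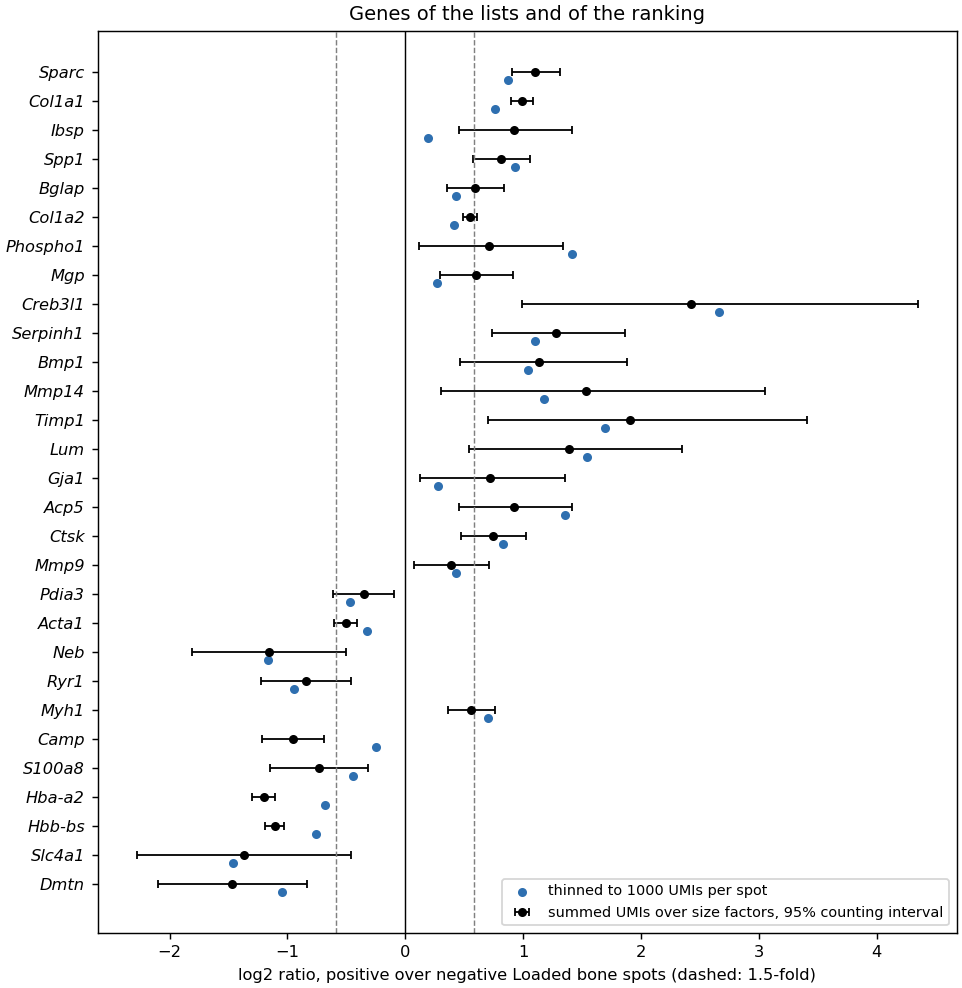
Log2 ratio of positive over negative Loaded bone spots for 29 named genes (points with 95% counting intervals, summed UMIs over size factors; blue points, spots thinned to 1000 UMIs). *Col1a1* and *Sparc* lie near 1 with narrow intervals, *Creb3l1* higher with a wide one, and *Hba-a2* and *Hbb-bs* near −1.

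Genes of red cells and granulocytes were lower in positive spots. Of 5 erythroid genes, 4 were at least 1.5-fold lower and the median was −1.11 (−0.76 at 1000 UMIs). *Hbb-bs*, an adult beta globin, was at levels of 32.1 in positive, 51.6 in 1-UMI and 69.3 in negative spots (−1.11, −1.19 to −1.03). In single spots at 1000 UMIs it ranged from 1 to 34 (median 11) in positive and from 6 to 50 (median 20) in negative spots, and the ranges overlapped. *Hba-a2* was at 21.5 and 49.5 (−1.20, −1.30 to −1.10), although its transcripts cannot be told apart from those of the near-identical *Hba-a1*, which was not analysed here. *Slc4a1*, the anion exchanger of the red cell membrane, had 23 and 22 UMIs (−1.37, −2.28 to −0.46). Erythroid genes were lower in both depth groups, at medians of −0.56 and −1.36, and both away from and near the axis, at −1.06 and −0.49. They made up a median of 2.52% of UMIs in positive spots (0.40 to 6.62%) and 4.59% in negative spots (0.88 to 7.91%). Of 7 granulocyte genes, 5 were at least 1.5-fold lower and none higher, with *Camp*, an antimicrobial granule peptide, at 3.45 and 6.67 (−0.95, −1.21 to −0.69) and *S100a8*, a calcium-binding protein of neutrophils, at 1.53 and 2.55 (−0.74, −1.15 to −0.31). At 1000 UMIs 3 of the 7 genes passed this limit, with *Camp* at −0.24 (−0.68 to 0.20) and *S100a8* at −0.44 (−1.11 to 0.24). The list median of −0.74 was −0.13 in the shallower spots and −0.08 within 450 µm of the axis. *Cd79a*, a part of the B cell receptor, had 11 and 19 UMIs (−2.22, −3.44 to −1.08), and *Igkc* was at −0.72 (−1.25 to −0.17). *Mki67*, a marker of dividing cells, was also lower (−0.81, −1.56 to −0.04). Macrophage genes did not go either way, with 1 of 6 at least 1.5-fold higher and a median of 0.12.

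Skeletal muscle genes, which encode the contractile apparatus of the fibers around the bone, were present in every class. They made up a median of 8.58% of UMIs in positive spots (2.28 to 27.5%) and 10.6% in negative spots (3.69 to 15.4%). Of 22 genes, 6 were at least 1.5-fold lower and none higher, with *Acta1*, skeletal actin, at 29.1 and 41.3 (−0.51, −0.60 to −0.41), *Ryr1*, the calcium release channel, at −0.85 (−1.23 to −0.46) and *Neb*, nebulin, at −1.16 (−1.81 to −0.50). *Myh1*, the heavy chain of one fast fiber type, went the other way over all spots (0.56, 0.36 to 0.76). This did not hold in every part of the bone. *Myh1* was at 0.20 on side A and −0.03 on side B, and at 0.38 away from the axis and −0.26 within 450 µm of it. The list median was −0.48, and it was −0.20 at 1000 UMIs and 0.03 in the shallower spots. Markers of other tissue were sparse. The 9 cartilage genes summed to 46 and 12 UMIs with no gene at 30, and the 6 Schwann cell genes to 21 and 10. Of 8 tendon and fibrous tissue genes, 3 were at least 1.5-fold higher and 1 lower, with a median of 0.41, and *Lum*, a collagen-binding proteoglycan, was at 1.39 (0.54 to 2.35).

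Many signaling genes had too few UMIs to compare. Of 19 listed growth factor and binding protein genes 10 were tested, of which 3 were at least 1.5-fold higher and 1 lower. *Igfbp5*, an abundant binding protein of insulin-like growth factors in bone, was at 3.99 and 2.81 (0.51, 0.16 to 0.86) and missed the limit. Among the higher genes, *Nbl1*, a secreted antagonist of bone morphogenetic proteins, was at 0.71 (0.05 to 1.43). The lower gene was *Ccn3*, which encodes a matricellular protein, at −0.995 (−2.07 to 0.11). Of 13 genes of the Wnt pathway, which sclerostin blocks, *Lrp6* (0.89, −0.40 to 2.44) and *Sfrp4* (0.32, −0.40 to 1.10) reached 30 UMIs, and *Lrp4*, a receptor that binds sclerostin, had 13 and 1. *Lrp5* had 11 and 6 UMIs (−0.56) and *Notum* 4 and 3 (−1.02), which is the other direction. Of 12 genes of mechanosensing 1 was tested, *Itgb5* (0.15, −0.83 to 1.23). The channel *Piezo1* had 18 and 4 UMIs (0.73) and *Piezo2* 7 and 4 (−0.63).

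By rank, the 10 highest ratios among 353 genes with at least 50 UMIs and the same direction in every depth and side subset were those of *Ptgis* (2.76, 1.14 to 5.08), *Creb3l1*, *Sdc1* (2.09, 0.89 to 3.58), *Timp1*, *Ell2* (1.86, 0.54 to 3.54), *Ifitm3* (1.77, 0.44 to 3.46), *Mprip* (1.61), *Nrbp2* (1.56), *Esyt1* (1.54) and *Mmp14*. *Ptgis* encodes prostacyclin synthase and had 55 UMIs in positive and 3 in negative spots. *Sdc1* was at 0.09 in the shallower and 3.10 in the deeper spots, and at −0.21 with positivity set at 1000 UMIs. It encodes a heparan sulfate proteoglycan of the cell surface and *Ell2* an elongation factor of RNA polymerase II, and both are abundant in plasma cells. The immunoglobulin genes *Igkc*, *Ighg3* and *Ighm* were at −0.72, −0.54 and −0.39. The median of the B and plasma cell list was −0.63 over all spots and 0.45 on side A. Whether plasma cells had a part in these ratios was not tested. The 10 lowest ratios included those of *Dmtn* (−1.47, −2.10 to −0.84), *Dnajc7* (−1.32), *Hist1h3d* (−1.29), *Armc1* (−1.27), *Hba-a2*, *Neb*, *4933434E20Rik* (−1.16), *Fam117a* (−1.15) and *Cmya5* (−1.13). *Dmtn* encodes a protein of the red cell membrane skeleton, while *Neb* and *Cmya5* are muscle genes.

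For some genes the levels changed in steps with the number of marker UMIs rather than at the border of the rule alone. *Sparc* was at 7.5, 8.39, 11.5, 14.9 and 20.1 in spots with 0, 1, 2, 3 or 4, and 5 or more marker UMIs, and *Col1a1* at 35.6, 46.1, 53.5, 71.3 and 81.6. *Bglap* stayed between 5.68 and 5.89 up to 2 marker UMIs and reached 11.6 at 5 or more. *Hbb-bs* fell by class from 69.3 to 23.5 and *Camp* from 6.67 to 1.95. Other genes did not change in steps. *Timp1* rose at the border of the rule and then stayed level, at 0.19, 0.03, 0.77, 0.74 and 0.67. *Ank* was highest in spots with 1 marker UMI, at 0.19, 0.57, 0.54, 0.49 and 0.44. The median depth of these classes was 2371, 2374, 2660, 3172 and 2914 UMIs.

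**Figure D5:**
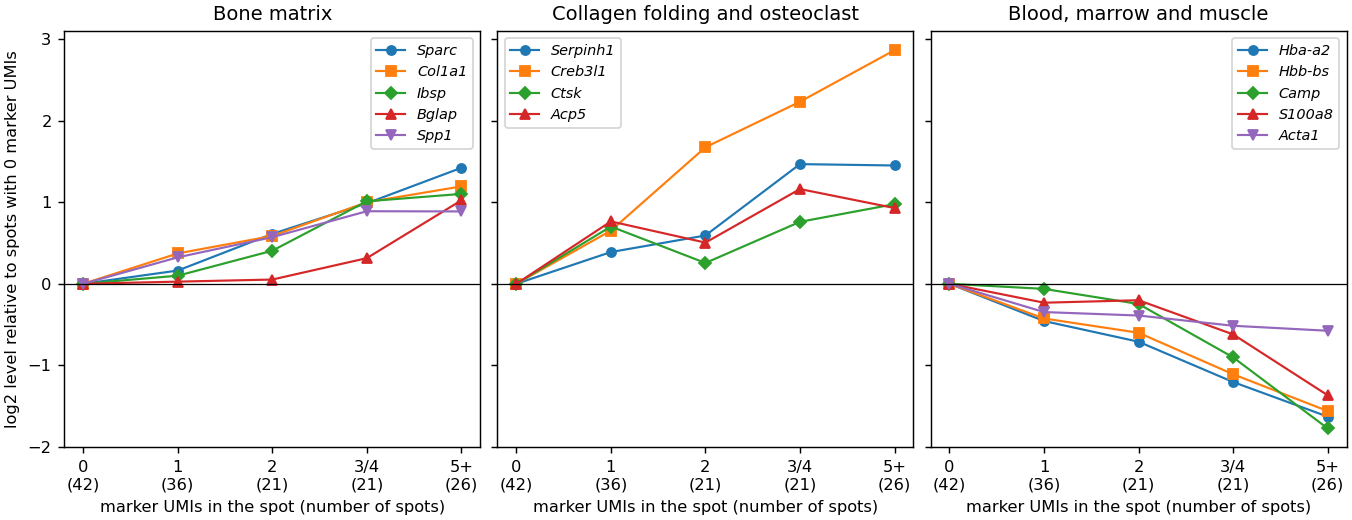
Log2 level of 14 genes relative to spots without marker UMIs (y) by the number of marker UMIs in the spot (x, number of spots in parentheses), in 3 panels. Matrix genes climb to about 1 or above, *Ctsk* and *Acp5* are already raised in spots with 1 marker UMI, and globin and *Camp* fall below −1 at 5 or more.

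In bone at the Control fracture site the same rule gave 8 positive spots (33065 UMIs) and 88 negative spots (318158 UMIs), and the lists were not ordered alike. The median of the osteoblast genes was −1.04 in Control and 0.87 in Loaded bone, with *Col1a1* at 57 and 3146 UMIs in Control positive and negative spots (−2.22). Muscle genes had a median of 1.54 in Control and −0.48 in Loaded bone. The 8 Control spots held 6 *Dmp1*, 2 *Mepe*, no *Phex* and 9 *Sost* UMIs. The sections were each compared within themselves, and with 1 section per group the difference between them was not tested.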

How the data were processed

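Visium data of 1 Control and 1 Loaded femur section were used, with no replicate sections. The deposited UMI counts were made by the authors with Space Ranger 2.0.0 on mm10 and are raw counts per gene and spot for 19465 genes. Bone spots are those of the study's list of annotated barcodes (146 of 146 found). The sections share 557 barcodes, which are slide positions and not cells. No doublet caller was run, as spots hold several cells.

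Size factors were computed over bone spots with scran 1.30.0 (R 4.3.3) and TMM factors with edgeR 4.0.16. Ratios are of summed UMIs over summed size factors, for genes with at least 30 UMIs in both classes together, and a gene is called at 1.5-fold. List medians of Control bone use the genes that passed this limit in Loaded bone, with no such limit in Control. A sum of 0 was set to 3 UMIs. Spots were also thinned without replacement to 1000 UMIs. Intervals are exact (Poisson, binomial, conditional binomial for ratios, 95%), computed with scipy 1.17.1, and treat UMIs as independent. Bone spots were split at the middle of the long image axis (left and right parts) and of the short one (sides A and B), in µm from a spot spacing of 100 µm. Gene spans come from GENCODE M21 (GRCm38) and promoter windows from RefSeq (GRCm38.p6). The ratio and thinning steps were tested on simulated data with known changes.

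Genes are named from 23 fixed lists, and by rank as the 10 highest and 10 lowest ratios among genes with at least 50 UMIs and 1 direction at 1000 UMIs, in both depth groups and on both sides. The rule, lists and markers were chosen with earlier results of these data known. Genes of the lists that are not described, including the marrow stroma, endothelium, adipocyte and hypoxia lists, are summarised in the closing section. Some genes that the rule names are not reported here.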

Additional observations from a re-analysis of the deposited data

Results flagged for a closer look

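The gene lists whose median log2 ratio of positive over negative spots had opposite signs in the 2 sections are given here, with Control bone (8 positive and 88 negative spots) first and Loaded bone second. For osteoblast and bone matrix genes the medians were −1.04 and 0.87, for mineralization genes −0.060 and 0.71, for other fibrillar collagens −1.19 and 0.60, and for collagen folding genes −0.47 and 0.65. Osteoclast genes were at −0.70 and 0.64, matrix remodelling genes at −1.32 and 0.60, growth factor genes at −1.05 and 0.34, tendon and fibrous tissue genes at −1.33 and 0.41, and macrophage genes at −0.92 and 0.12. Skeletal muscle genes were at 1.54 and −0.48 and erythroid genes at 0.17 and −1.11. Of lists with 1 or 2 genes tested, Wnt genes were at −0.87 and 0.60, mechanosensing at −1.70 and 0.15, marrow stroma at −1.60 and 0.22, endothelium at −0.78 and 0.29, and proliferation at 0.63 and −0.73. Some of the Loaded medians changed sign after thinning and then had the sign of the Control median, which was taken without thinning. Growth factor genes were then at −0.20, macrophage genes at −0.10, Wnt genes at −1.09, mechanosensing at −1.31 and marrow stroma at −0.53. The other Loaded medians given here kept their sign after thinning. The differences between sections were not tested, since each section is 1 mouse. Of the Control osteoblast list 9 genes gave a value. The muscle-rich spots outside bone met the rule at 8.93% in Control and 4.79% in Loaded tissue, at median depths of 4261 and 3425 UMIs. At 1000 UMIs per spot, at least 1 marker UMI was seen in 10.1% and 8.95% of them.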

How the results depend on the processing

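With 1 section per group, a change between settings says nothing of variation between mice. No paired analysis was possible because each group has 1 sample. The counts of 398 higher and 313 lower genes became 1545 and 1234 at a minimum of 10 UMIs, 2084 and 3144 at 1 UMI, 47 and 45 at 100 UMIs, and 156 and 84 at 2-fold. Subsets hold fewer spots, so fewer genes reach 30 UMIs. The counts were 30 and 39 of 339 genes tested below the median depth, and 251 and 179 of 1104 below the median muscle share. With the rule set at 1000 UMIs 226 of 2774 genes tested were higher. Without *Dmp1* in the rule 229 of 2092 were higher. The main comparison had 398 higher genes of 2168, so under both of these rules the share of higher genes was smaller. The rule gave 104 positive spots at 1 UMI, 37 without *Dmp1* and 27 at 2 UMIs after thinning.

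The osteoblast median of 0.87 was 0.067 below the median depth. There, fibrillar collagens were at −0.019, *Bglap* at −0.23, *Ibsp* at −0.61, muscle genes at 0.029, granulocyte genes at −0.13 and B cell genes at 0.014, while muscle genes were at −0.66 above it. With the rule set at 1000 UMIs, osteoclast genes were at −0.044, *Ctsk* at −0.0035, *Acp5* at −0.021, *Sdc1* at −0.21, Wnt genes at −0.0038, muscle genes at −0.11 and granulocyte genes at −0.071. After thinning, Wnt genes were at −1.09 and muscle genes at −0.20. With equal weight per spot, muscle and granulocyte genes were at −0.19 and −0.22. Without *Dmp1* in the rule, *Bmp1* was at −0.16 and muscle genes at −0.12, and granulocyte genes were at −1.28 in spots low in muscle.

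Settings chosen after seeing the data were also run. On side A the counts were 220 and 168 of 957 genes tested, and B cell genes were at 0.45. On side B the counts were 98 and 112 of 709, with osteoclast genes at 0.17 and muscle genes at −0.14. At 450 µm or more from the axis 199 of 1269 genes were lower, and osteoclast, B cell and proliferation genes were at 1.32, 0.090 and 0.0017. Nearer the axis the counts were 44 and 73 of 482 genes tested. Osteoblast, osteoclast, muscle and granulocyte genes were there at 0.38, 0.23, −0.69 and −0.083, with *Acp5* at −0.37, *Mmp14* at −0.014 and *S100a8* at 0.027. Against spots with 1 marker UMI, osteoclast and muscle genes were at −0.13 and −0.15. The cause of these changes was not tested.

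Leaving out each of 4 blocks of the bone gave 230 to 351 higher and 210 to 257 lower genes of 1429 to 1747 tested. Muscle genes then had a median of −0.65 to −0.28. Of 1383 list medians, marker ratios and ratios of named genes over all settings, at least 1130 stayed within the counting interval, 62 had another sign than the reported value, and 18 of these belonged to values of at least 1.5-fold.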

Other observations

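Lists with few tested genes gave no common direction. Of 3 adipocyte genes, *Lpl*, a lipase, was at 0.96 (−0.15 to 2.26) and *Fabp4*, a fatty acid binding protein, at −0.87 (−1.58 to −0.14), and of 2 endothelium genes *Egfl7* was at 0.56 (−0.37 to 1.61) and *Plvap* at 0.01 (−0.80 to 0.88). *Cxcl12*, a chemokine of marrow stroma, was at 0.22 (−0.71 to 1.25) and *Pgk1*, the 1 gene tested of the hypoxia list, at 0.61 (−0.61 to 2.05).

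The spots outside annotated bone that met the marker rule are described by place. Of the 65 such spots of the Loaded section, 26.2% touched the bone region and 50.8% lay over 500 µm from it, compared with 8.96% and 55.7% of the 1027 outside spots without a marker UMI, and they held 75 *Sost* and 74 *Dmp1* UMIs. Of the 189 such spots of the Control section, 0.53% touched the annotated region and 95.8% lay over 500 µm from it, compared with 8.36% and 67.9% of the 1304 outside spots without a marker UMI, and they held 257 *Sost* and 276 *Dmp1* UMIs in 408898 UMIs. What tissue these spots cover is not given in the sources used here.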
